A study of Rattus norvegicus with 2 samples.

Results

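Gfap, Aqp4, Glul, Aldoc, Aldh1l1, Clu, Apoe, Sox9, Nfia and Acsbg1 are genes by which astrocytes are recognised in brain tissue and in culture. Of these 10 genes, 8 were among the 18166 genes measured, each through 1 array feature annotated to that gene symbol alone. Glul, the glutamine synthetase gene, and Aldh1l1, a folate enzyme gene widely used to label astrocytes, are not analysed here. The genes were listed by name, with earlier results of these data known. They were followed in colony No.8 and colony No.4, each grown from C6, a glioma cell line of the rat that serves as a model of astrocytic tumours. Each colony gave 1 whole-transcript expression array of total RNA, with no replicate. Titles describe both colonies as undifferentiated, and both arrays carry the same treatment text, 35 days of 20 µM CHIR99021 with 100 µM forskolin. Whether the RNA was taken before or after that treatment is not settled by the labels. Both cultures were kept in medium with 10% serum, and the colonies differ in the labels only by their number.

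Astrocytes clear glutamate and potassium from the space around synapses, supply neurons with glutamine and lipid, and line blood vessels with water channels. The transcription factors SOX9 and NFIA start the astrocyte programme in neural progenitors, and the filament protein GFAP, the water channel AQP4 and the metabolic enzymes of the list mark its mature state. Cytokines acting through STAT3 and bone morphogenetic proteins acting through SMAD factors are known to raise GFAP in progenitors.

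Aldoc and Nfia were bright in both colonies, Clu was bright in colony No.8 only, and Gfap, Apoe, Aqp4, Sox9 and Acsbg1 had no level above the background guide explained next. Levels are log2 values as deposited. A gene was said to reach the floor when at least 1 colony was at or above 4.33, the middle of all deposited values (their median). Genes for olfactory receptors, which work in the nose, served as a guide to background. The 99th percentile of their levels was 5.67, called here the background guide. Of the 8 genes, 5 reached the floor in at least 1 colony and 3 were below it in both; the share that reached it, 62.5%, was near the 60.9% of all genes. Above the background guide were 3 of the 8 in at least 1 colony and 2 in both, against 44.9% and 40.6% of all genes. Because features differ in brightness for reasons of design, levels of different genes are not ranked against each other.

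**Figure D1:**
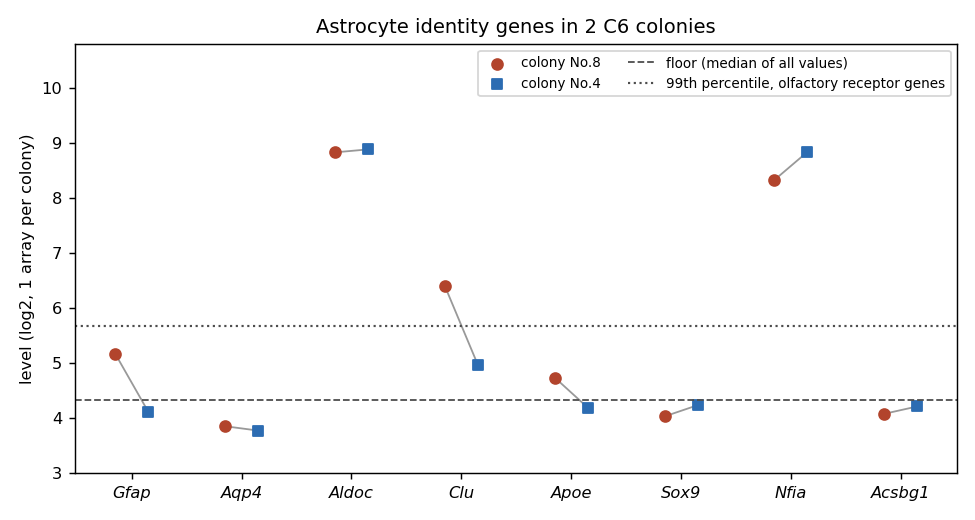
Deposited log2 level (vertical axis) of each of the 8 measured astrocyte identity genes (horizontal axis) in colony No.8 (circles) and colony No.4 (squares), 1 array each, with no error bars because there are no replicates. Dashed and dotted lines mark the floor of 4.33 and the background guide of 5.67. Aldoc and Nfia lie above both lines in both colonies, while Aqp4, Sox9 and Acsbg1 lie below both.

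Of the 8 genes, 4 were higher and 4 lower in colony No.8, and 2, Gfap and Clu, reached the floor and were at least 2-fold higher there. None was at least 2-fold lower in colony No.8. Among the 11069 genes of the array that reached the floor, colony No.8 was higher by 2-fold or more for 2.91% and lower by as much for 2.57%. With so few members, and with Gfap reaching the floor only through the colony in which it was higher, the count is a description. The median difference over the 8 genes, colony No.8 minus colony No.4, was 0.01, against 0.03 over all 18166 genes, and their mean was 0.28. Over the 5 that reached the floor the median was 0.55, against 0.04 over all such genes, with Gfap and Apoe among the 5 only through colony No.8. At 1.5-fold the count was again 2 higher and 0 lower, against 9.87% and 7.93% of all genes that reached the floor. With every level under 5.67 raised to 5.67, none of the 8 genes was 2-fold apart, against 4.66% of the 8161 genes that reach 5.67. The differences ran from -0.51 for Nfia to 1.43 for Clu. For 4 of the 8 genes the difference was 0.25 or less in size. No test was possible with 1 array per colony, so none of these differences has been set against replicate error. In RNA from whole cultures, a change in the share of cells that express a gene cannot be told apart from a change per cell.

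**Figure D2:**
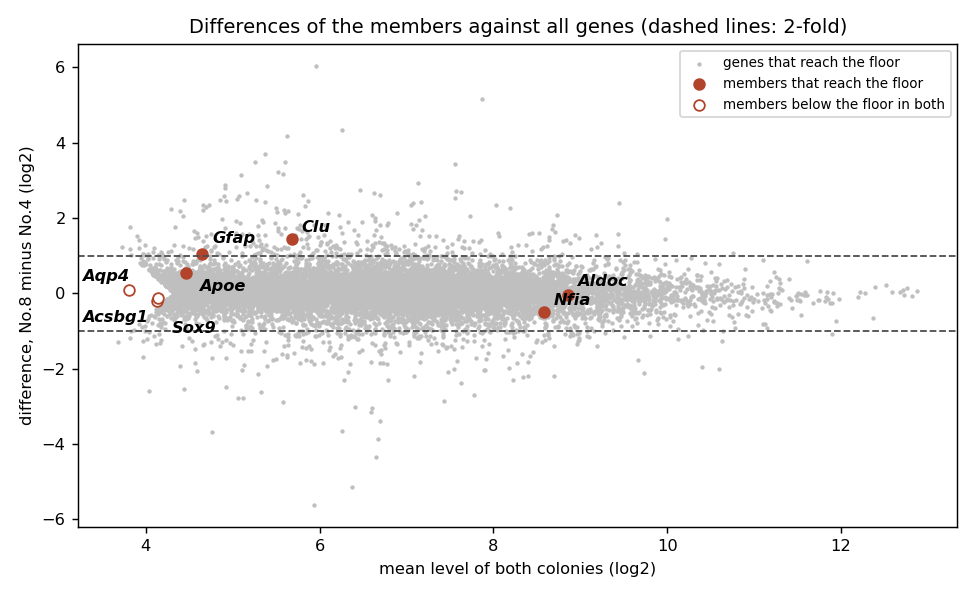
Difference in log2 level, colony No.8 minus colony No.4 (vertical axis), against the mean level of both colonies (horizontal axis), for the genes that reached the floor (grey) and for the astrocyte identity genes (named; open circles are below the floor in both colonies). Clu (1.43) and Gfap (1.05) lie past the dashed 2-fold line, and Nfia (-0.51) is the lowest of the 8.

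Upstream windows of the genes were searched for binding motifs of the factors that act in this programme and of the pathways that the 2 drugs act on. The 250 bases before each annotated start were taken from RefSeq, build GRCr8, for the 8 of the 10 genes that its promoter table holds; Clu and Sox9 were not among them. They were searched on both strands for the NFI palindrome (TTGGC and GCCAA with 5 bases of any kind between them), a STAT site (TTCNNNGAA), a SOX site (ACAAAG), a cyclic AMP response element (TGACGTCA) and a LEF site (ATCAAAG). The SOX and LEF letters share the run CAAAG. Gfap is shown as the marker gene that lay past 2-fold, Aldoc as a gene bright in both colonies, and Aqp4 and Acsbg1 because they held a match. Capitals mark the matches.
Gfap, chr10:88361662-88361911, minus strand: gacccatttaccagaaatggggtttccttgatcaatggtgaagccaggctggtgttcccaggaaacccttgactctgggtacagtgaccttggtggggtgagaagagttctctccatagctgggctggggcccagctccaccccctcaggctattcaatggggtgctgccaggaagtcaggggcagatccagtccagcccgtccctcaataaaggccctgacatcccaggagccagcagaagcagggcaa
Aldoc, chr10:63715294-63715543, plus strand: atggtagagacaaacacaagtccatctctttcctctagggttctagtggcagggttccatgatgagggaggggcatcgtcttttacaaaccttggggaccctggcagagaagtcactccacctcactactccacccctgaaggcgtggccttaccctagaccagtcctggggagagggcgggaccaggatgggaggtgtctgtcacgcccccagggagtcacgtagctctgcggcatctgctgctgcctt
Aqp4, chr18:6797927-6798176, minus strand: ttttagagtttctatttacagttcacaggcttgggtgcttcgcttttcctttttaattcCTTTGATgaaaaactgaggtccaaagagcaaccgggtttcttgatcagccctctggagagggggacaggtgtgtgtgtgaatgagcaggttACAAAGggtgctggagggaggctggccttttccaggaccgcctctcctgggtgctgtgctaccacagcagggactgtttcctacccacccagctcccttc
Acsbg1, chr8:63943279-63943528, minus strand: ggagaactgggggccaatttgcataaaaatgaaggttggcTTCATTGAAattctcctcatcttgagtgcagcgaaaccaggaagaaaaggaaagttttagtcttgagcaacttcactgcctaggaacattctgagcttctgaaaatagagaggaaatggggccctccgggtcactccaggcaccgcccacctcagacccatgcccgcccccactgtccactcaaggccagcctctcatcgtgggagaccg
The Gfap and Aldoc windows held none of the 5 motifs, which says only that these letters are not in the windows. The Aqp4 window, 1 of 2 in the table for that gene, held a LEF match starting 191 bases and a SOX match starting 100 bases before the gene start. The Acsbg1 window held a STAT match starting 210 bases before the start. Over all 33469 windows, 16.3% held the SOX letters, 7.67% the STAT letters, 3.15% the LEF letters, 1.59% the cyclic AMP response element and 0.0359% the NFI palindrome. The only other match among these genes was a LEF match in 1 window of Glul. G and C made up 57.6% of the Gfap window, 58.0% of the Aldoc window, 51.6% of the Aqp4 window and 52.4% of the Acsbg1 window, against a median of 51.2% over all windows.

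Sox9 and Nfia, the transcription factors that open the programme, stood on opposite sides of the background range. Nfia, which encodes nuclear factor I/A, was at 8.33 in colony No.8, against 8.84 in colony No.4. The difference of -0.51 made Nfia 1.42-fold lower in colony No.8, short of 2-fold. Of the 500 genes nearest to Nfia in mean level, 23.4% differed by at least as much in either direction. Sox9, which encodes a SOX factor needed for the switch from neuron to glia production, was at 4.03 in colony No.8, against 4.23 in colony No.4. Both Sox9 levels were below the floor, so the difference of -0.20 has no order, and 91.4% and 93.1% of olfactory receptor values were at or below the Sox9 level in colony No.8 and in colony No.4.

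The relatives of these 2 factors in their gene families were bright in both colonies, except Sox8. Nfib, whose product acts with NFIA in glial development, was at 9.77 in colony No.8 compared with 9.58 in colony No.4. Nfix was at 9.47 in colony No.8, against 9.37 in colony No.4, and Nfic was at 9.38 in colony No.8, against 9.72 in colony No.4. Nfia thus showed the largest difference of the NFI genes, and none of the 4 was 2-fold apart. Sox9 belongs to the SOX E group with Sox8 and Sox10. Sox10, which maintains oligodendrocyte and Schwann cell identity, was at 9.36 in colony No.8 compared with 9.69 in colony No.4, and Sox8 was at 5.72 in colony No.8, against 5.74 in colony No.4, just above the background guide. Of the SOX E genes, Sox9 alone was below the floor in these arrays.

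Among 25 transcription factors of the astrocyte lineage, Sox9 and Nfia included, 9 were higher and 15 lower in colony No.8, and 19 reached the floor. The median difference over those 19 was -0.33, against 0.04 over all genes that reached the floor, and over all 25 it was -0.08. At least 2-fold higher was 1, Hes1, a Notch effector that delays differentiation, at 9.55 in colony No.8, against 8.13 in colony No.4. At least 2-fold lower were 2 genes. Id3, a target of bone morphogenetic proteins, was at 6.19 in colony No.8 compared with 7.28 in colony No.4. Olig2, a factor of oligodendrocyte precursors that opposes astrocyte formation, was at 4.22 in colony No.8, against 6.36 in colony No.4. Olig2 was below the floor in colony No.8, and its difference was at least 1.61-fold when both levels were counted from 5.67. Id1 was at 6.40 in colony No.8, against 7.15 in colony No.4, in the same direction as Id3 but short of 2-fold.

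**Figure D3:**
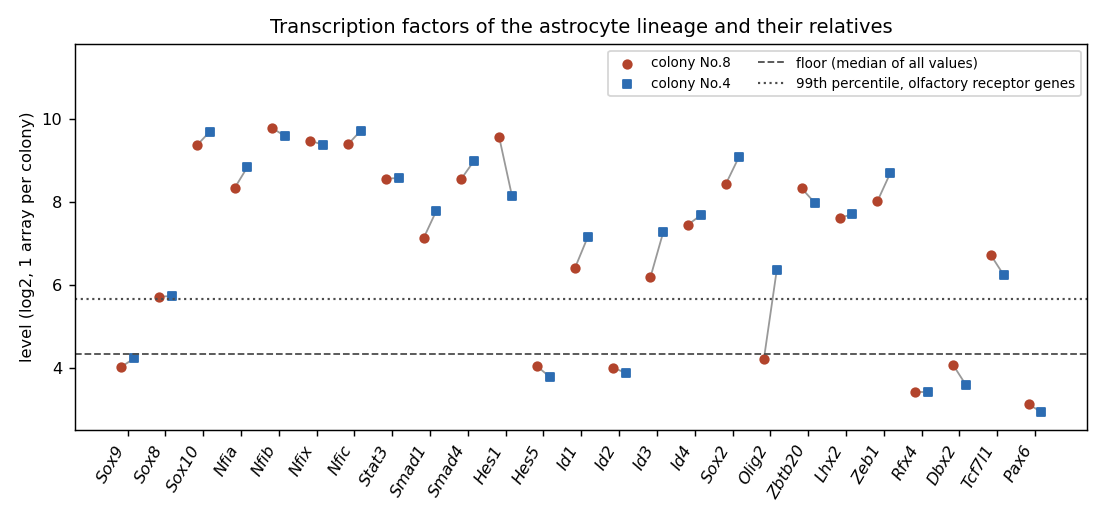
Deposited log2 level (vertical axis) of 25 transcription factor genes of the astrocyte lineage (horizontal axis) in colony No.8 (circles) and colony No.4 (squares), 1 array each. Dashed and dotted lines mark the floor and the background guide. Sox9 lies below the floor in both colonies while Sox10 and the 4 NFI genes lie above 8, and Hes1, Id3 and Olig2 are the genes at least 2-fold apart.

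Gfap, the gene of the astrocyte intermediate filament, was at 5.17 in colony No.8 compared with 4.11 in colony No.4. The difference of 1.05 is 2.07-fold on the deposited scale, just past the 2-fold limit. Gfap was below the floor in colony No.4, and with the floor in place of that level the difference came to 1.79-fold. Both levels were under the background guide of 5.67, so counted from there no difference was left. Of the 500 genes nearest in mean level, 4.20% differed by at least as much, and of all 2908 genes whose brighter level lay between the floor and the background guide, 3.03% were at least 2-fold apart. Among the olfactory receptor values, 98.1% were at or below the Gfap level in colony No.8 and 92.0% were at or below that in colony No.4.

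Gfap was the only one of 11 intermediate filament and linker genes that was 2-fold apart, and 5 of the 11 reached the floor. Vim, which encodes vimentin, the filament of immature and reactive astrocytes and of mesenchymal cells, was at 12.60 in colony No.8, against 12.57 in colony No.4. Nes, the nestin gene of neural progenitors, was at 9.94 in colony No.8, against 9.54 in colony No.4. Plec, which encodes the linker plectin, was at 8.86 in colony No.8 compared with 8.32 in colony No.4. The neuronal filament genes Nefl, Nefm and Nefh were below the floor in both colonies. The vimentin and nestin genes were thus above the background guide in both colonies, and Gfap in neither.

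Inputs known to raise Gfap were measured too. Of 23 measured genes of cytokine, STAT and bone morphogenetic protein signalling, 16 reached the floor, none lay 2-fold above and 1 lay at least 2-fold below its level in colony No.4. That gene was Socs3, a STAT3-induced inhibitor of the same pathway, at 5.90 in colony No.8, against 6.95 in colony No.4. Stat3 was nearly level, at 8.56 in colony No.8, against 8.58 in colony No.4. Il6st, the shared receptor subunit of this cytokine family, was at 9.61 in colony No.8 compared with 9.87 in colony No.4. Lifr, its partner for leukaemia inhibitory factor, was below the floor in both colonies, at 3.37 in colony No.8, against 2.99 in colony No.4. The list's median difference was 0.00, with 11 genes higher and 11 lower in colony No.8. The cytokine gene Cntf was at 5.04 in colony No.8, against 4.50 in colony No.4, both under the background guide. Bmpr1a, a receptor gene for bone morphogenetic proteins, was at 7.36 in colony No.8, against 6.81 in colony No.4. The cytokine gene Clcf1, at 5.68 in colony No.8, against 6.48 in colony No.4, and Smad1, a signal carrier of bone morphogenetic proteins, at 7.13 in colony No.8 compared with 7.79 in colony No.4, were lower in colony No.8 by less than 2-fold.

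Reactive astrocytes raise Gfap together with other genes, and 30 of these were measured. Of them 16 reached the floor, 2 were at least 2-fold higher and none at least 2-fold lower in colony No.8. The median difference was 0.09. Cp, the ceruloplasmin gene, was at 5.39 in colony No.8, against 3.79 in colony No.4. As with Gfap, both levels were under the background guide. Counted from the floor, the difference was at least 2.09-fold for Cp and at least 1.79-fold for Gfap. Srgn, which encodes the proteoglycan serglycin, was at 7.06 in colony No.8, against 5.45 in colony No.4. Lcn2, C3 and Cd44 were named after their values were seen. Lcn2 and C3, much used markers of reactive astrocytes, were below the floor in both colonies. Above the background guide in at least 1 colony were 11 of the 30, among them Cd44, at 8.43 in colony No.8, against 8.86 in colony No.4. Of the 30 genes, 20 were higher and 10 lower in colony No.8.

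Aqp4, the gene of the main water channel of the brain, was at 3.85 in colony No.8 compared with 3.77 in colony No.4. Both levels were below the floor, and 88.8% and 87.7% of olfactory receptor values were at or below the Aqp4 level in colony No.8 and in colony No.4. Its partners were not all in this range. Of 11 measured genes of the channel, its anchor and its companions, 7 reached the floor, 2 were at least 2-fold higher and 1 at least 2-fold lower in colony No.8. Dag1, which encodes the dystroglycan that tethers the channel complex to the vessel wall, was at 10.81 in colony No.8, against 10.50 in colony No.4. Agrn, which encodes agrin, a matrix ligand of dystroglycan, was at 7.83 in colony No.8, against 6.72 in colony No.4, a 2.16-fold difference with both levels above the background guide. Kcnj10, the potassium channel gene that shares the endfoot with Aqp4, was at 5.33 in colony No.8 compared with 4.18 in colony No.4, both under that guide. Trpv4, an osmosensing cation channel gene, was at 5.39 in colony No.8, against 7.09 in colony No.4, which is 3.25-fold lower in colony No.8 and at least 2.68-fold when counted from 5.67. Aqp1, a water channel gene of the choroid plexus that astrocytic tumours also use, was at 5.77 in colony No.8, against 6.38 in colony No.4.

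Aldoc, which encodes aldolase C, the glycolytic isoform of brain, was at 8.83 in colony No.8 compared with 8.88 in colony No.4. Of the 500 genes nearest in mean level, 87.2% differed by at least as much as Aldoc, whose difference was -0.05. Aldoa, the isoform of muscle and of most dividing cells, was as level, at 10.42 in colony No.8, against 10.35 in colony No.4. Aldoc was the member of the list with the smallest difference between the colonies, and the only metabolic one of the measured members above the background guide.

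Acsbg1, which encodes a bubblegum-type acyl-CoA synthetase of astrocytes, was at 4.08 in colony No.8, against 4.21 in colony No.4, below the floor in both. Its close relative Acsbg2, known from testis and brainstem, was also below the floor, at 4.07 in colony No.8 compared with 4.24 in colony No.4. Other enzymes that activate fatty acids were bright. Acsl3 was at 9.96 in colony No.8, against 10.57 in colony No.4, Acsl4 at 9.47 in colony No.8, against 9.51 in colony No.4, and Acsl1 at 8.90 in colony No.8 compared with 9.39 in colony No.4. Of the 10 synthetase genes, 7 reached the floor, 3 were higher and 7 lower in colony No.8, and none was 2-fold apart. Acss2, of acetate use, and Acsf2 differed by -0.65 and 0.64.

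Clu and Apoe encode the lipid carriers clusterin and apolipoprotein E, which astrocytes secrete. Clu was at 6.40 in colony No.8, against 4.97 in colony No.4. The difference of 1.43, or 2.70-fold, was the largest of the 8 genes. Its level in colony No.4 was above the floor but under the background guide, and counted from 5.67 the difference was at least 1.65-fold. Of the 500 genes nearest in mean level, 3.40% differed by at least as much, and of the 8161 genes whose brighter level reached the background guide, 6.35% were at least 2-fold apart. Apoe was at 4.73 in colony No.8, against 4.19 in colony No.4, a difference of 0.55 with both levels under the background guide. Among genes nearest to Apoe in level, 10.4% differed by at least as much. Clu and Apoe were thus higher in the same colony, and only the Clu level in colony No.8 was above the background guide.

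Of 16 measured genes of lipid transport, Clu and Apoe included, 10 were higher and 4 lower in colony No.8. Among them 12 reached the floor, 2 were at least 2-fold higher (Clu among them) and 1 at least 2-fold lower in colony No.8. Lcat, the enzyme gene that esterifies cholesterol on secreted lipoproteins, was at 6.65 in colony No.8 compared with 5.37 in colony No.4. Lrp8, a receptor gene for apolipoprotein E and reelin, was at 8.36 in colony No.8, against 9.48 in colony No.4, and Vldlr, its relative, was at 7.40 in colony No.8, against 8.27 in colony No.4. Abca1, which loads apolipoprotein E with lipid, was at 5.70 in colony No.8 compared with 5.19 in colony No.4. Lrp1, a further receptor gene for apolipoprotein E, was at 9.45 in colony No.8, against 9.38 in colony No.4. Counted from 5.67, the difference of Lcat was at least 1.97-fold, while that of Lrp8 was 2.17-fold as before.

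The enzymes Glul and Aldh1l1 are not analysed here, but their pathways were. Of 14 measured genes of glutamate and glutamine handling, 11 reached the floor, none was at least 2-fold higher and 1 was at least 2-fold lower in colony No.8. The astrocyte glutamate transporter gene Slc1a3 was below the floor at 4.12 in colony No.8, against 3.88 in colony No.4. Slc1a2, the other astrocyte transporter gene, was at 4.34 in colony No.8 compared with 3.57 in colony No.4, at the floor in colony No.8. Slc1a1, the transporter gene best known from neurons, was at 8.94 in colony No.8, against 9.41 in colony No.4. Slc7a11, the cystine and glutamate exchanger gene, was the member 2-fold lower, at 7.70 in colony No.8, against 8.76 in colony No.4. The glutamate dehydrogenase gene Glud1 was at 9.31 in colony No.8 compared with 9.98 in colony No.4.

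Around Aldh1l1, 11 folate enzyme genes were measured, 10 reached the floor, 10 were higher and 1 lower in colony No.8, and none was 2-fold apart. Their median difference was 0.23, against 0.03 over all genes. The serine hydroxymethyltransferase genes Shmt2 and Shmt1 differed by 0.64 and 0.40. Shmt2 was above the background guide in both colonies, and Shmt1 under it in both. Gart, of purine synthesis, was at 6.83 in colony No.8, against 5.85 in colony No.4, and Tyms, the thymidylate synthase gene of dividing cells, was at 8.18 in colony No.8, against 7.24 in colony No.4. Aldh1l2, the mitochondrial relative of Aldh1l1, was below the floor at 3.49 in colony No.8 compared with 3.31 in colony No.4.

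Of a wider list of 25 measured astrocyte markers, 14 reached the floor (56.0%, against 60.9% of all genes), 8 were above the background guide in at least 1 colony, none was at least 2-fold higher and 2 were at least 2-fold lower in colony No.8. Gja1, the gene of the astrocyte gap junction protein connexin 43, was at 6.86 in colony No.8, against 7.99 in colony No.4. Plpp3, a lipid phosphatase gene of astrocytes, was at 6.05 in colony No.8, against 7.43 in colony No.4. Most of the list went the other way by less than 2-fold: 15 of the 25 genes were higher and 10 lower in colony No.8. The median over all 25 was 0.09. The largest rises were 0.77 for Slc1a2 and 0.75 for Gpr37l1, both genes under the background guide in both colonies. Ndrg2, above that guide in both, was at 8.44 in colony No.8, against 7.93 in colony No.4. S100b was bright, at 8.46 in colony No.8 compared with 8.24 in colony No.4, and, named after its values were seen, so was Mfge8, at 10.64 in colony No.8, against 10.55 in colony No.4. Also named after their values were seen, Fabp7, Gjb6 and Slc4a4 were below the floor in both colonies.

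**Figure D4:**
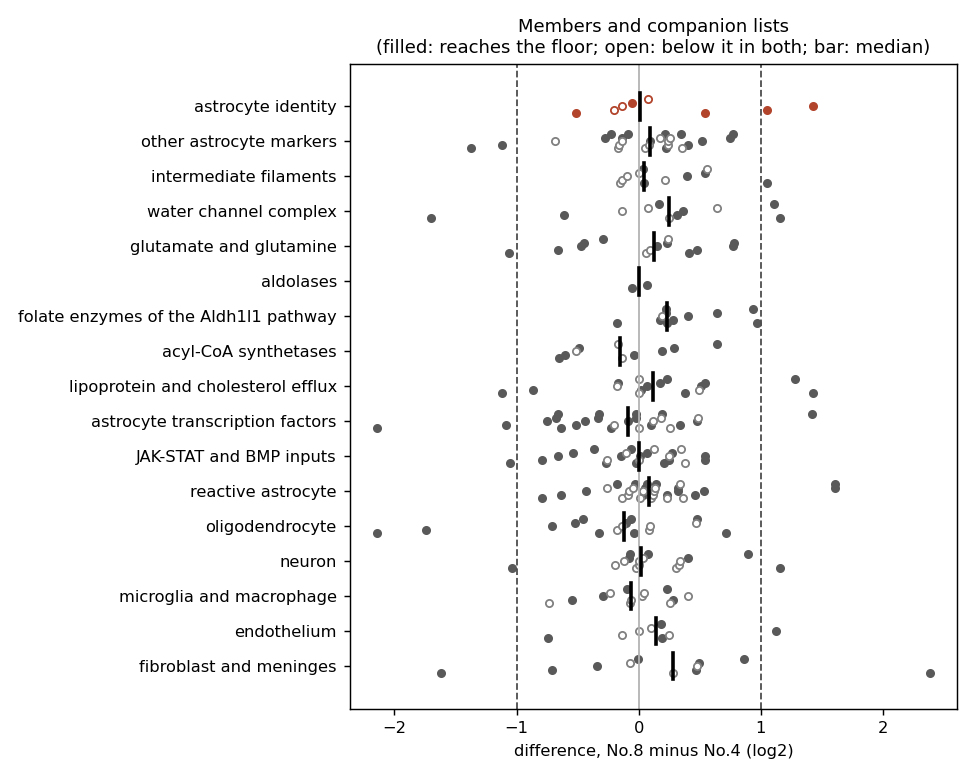
Difference in log2 level, colony No.8 minus colony No.4 (horizontal axis), for each measured gene of the astrocyte identity list (top row) and of the companion lists (vertical axis). Filled points reach the floor, open points are below it in both colonies, bars are medians over all measured genes of a list, and dashed lines mark 2-fold. Clu and Gfap lie past the right dashed line, Gfap with both levels under 5.67, and Gja1 and Plpp3 of the wider astrocyte list lie past the left one.

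Markers of other cell types were present to different degrees beside the astrocyte genes, and their part in the differences of Gfap, Clu and Nfia was not tested. Of 16 oligodendrocyte genes measured, 11 reached the floor, none was at least 2-fold higher and 2, Olig2 and Cspg4, were at least 2-fold lower in colony No.8. The precursor gene Pdgfra was at 9.53 in colony No.8, against 10.24 in colony No.4. The myelin genes were mixed. Mag, Mobp and Ugt8 were below the floor in both colonies, and Mbp, Mog and Cldn11 lay between the floor and the background guide. Cnp was bright, at 8.97 in colony No.8, against 8.49 in colony No.4. Myrf, a myelin factor gene, was at 6.36 in colony No.8, against 5.64 in colony No.4. The levels of the 16 oligodendrocyte genes, taken off the log scale and summed, came to 2241 in colony No.8 compared with 2858 in colony No.4. A few bright genes make up most of such a sum, here Pdgfra and Sox10. The sums therefore do not measure how much of a cell type is present. Pdgfra was counted again among the fibroblast and meningeal genes. The corresponding sums were 1557 in colony No.8, against 1670 in colony No.4 for 16 neuronal genes, of which 7 reached the floor. Among these, Mapt, which encodes the microtubule protein tau, was at 5.96 in colony No.8, against 4.80 in colony No.4. Gad1, the gene of an enzyme that makes the transmitter GABA, was at 7.62 in colony No.8, against 8.66 in colony No.4, so the 2 neuronal genes at least 2-fold apart went in opposite directions. The sums were 351 in colony No.8 and 355 in colony No.4 for 13 microglial genes, of which 5 reached the floor, with Ptprc, Cx3cr1, P2ry12, Itgam and Aif1 below it in both. None of the microglial genes was 2-fold apart. Among the 5 that reached the floor, the largest differences were -0.55 for Cd68, -0.29 for Tmem119, 0.28 for Trem2 and 0.24 for Cd14. Cd68 was below the floor in colony No.8 and under the background guide in both. Tmem119, Trem2 and Cd14 were above that guide in both colonies. Ptprc and Csf1r, below the floor in both colonies, differed by -0.74 and 0.40. For 8 endothelial genes, 4 of which reached the floor, the sums were 276 in colony No.8 and 304 in colony No.4. Cdh5, Vwf and Emcn were below the floor in both. Tek, an angiopoietin receptor gene, was at least 2-fold apart, at 5.97 in colony No.8, against 4.84 in colony No.4. Flt1, above the background guide in both colonies, went the other way, at 6.70 in colony No.8, against 7.44 in colony No.4. For 11 fibroblast and meningeal genes, 8 of which reached the floor, they were 9142 in colony No.8, against 6480 in colony No.4, with Dcn and Lum below the floor in both. The fibronectin gene Fn1 was at 12.04 in colony No.8, against 11.17 in colony No.4. The collagen gene Col1a1 was at least 2-fold higher, at 10.64 in colony No.8 compared with 8.25 in colony No.4. Its relatives Col1a2 and Col3a1 were under the background guide in both colonies and were not 2-fold apart. Col1a2 was at 5.06 in colony No.8, against 4.57 in colony No.4, and Col3a1 at 5.08, against 4.61. The mesenchymal factor gene Tbx18 was at least 2-fold lower, at 4.75 in colony No.8, against 6.37 in colony No.4. Counted from 5.67, Cspg4, Mapt, Tek and Tbx18 were under 2-fold.

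The genes next to the 8 along the chromosome were looked up in RefSeq gene order, with 2 measured neighbours on each side and 32 in all. Of these, 20 reached the floor, as did 60.9% of all genes. By 2-fold or more, 2 lay above their level in colony No.4 and none below it. Among all genes that reached the floor, these shares were 2.91% and 2.57%. The median difference of the neighbours was 0.19, against 0.03 over all genes. On the 2 sides of Gfap lay FAM187A, at 3.45 in colony No.8, against 3.23 in colony No.4, and Kif18b, a mitotic kinesin gene, at 8.81 in colony No.8, against 9.02 in colony No.4. The next gene beyond Kif18b was C1ql1, a secreted C1q-like protein gene, at 4.49 in colony No.8 compared with 3.44 in colony No.4. Both levels were under the background guide, and counted from the floor the difference was 1.12-fold. The other neighbour 2-fold higher was Cdh2, near Aqp4, which encodes N-cadherin, at 9.95 in colony No.8, against 8.41 in colony No.4. Of the 4 measured neighbours of Clu, Ccdc25 alone was above the background guide, at 6.68 in colony No.8 compared with 6.37 in colony No.4, and the other 3 were under it in both. Apoe lay between Apoc1, at 3.28 in colony No.8, against 2.78 in colony No.4, and Tomm40, a mitochondrial import gene, at 9.12 in colony No.8 compared with 9.07 in colony No.4. Beyond Tomm40 lay Nectin2, at 6.52 in colony No.8, against 5.57 in colony No.4, which is 1.92-fold. The Nectin2 level in colony No.4 was under the background guide. Beyond Apoc1 lay Apoc4, below the floor in both colonies.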

How the data were processed

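One array per colony was used, 2 in all. The deposited values are log2 levels made by the authors; background correction, normalization, summarization and software are not named by labels or headers, and base 2 was inferred because values reach 13.3. The arrays had nearly equal quartiles (upper quartile 6.37 in both), so no scaling was added. Platform annotation named 18511 of 36685 features with 1 symbol; 575 had several and 17599 none. Where a gene had several features the brighter on average was used. The identifiers of 18394 of the 18511 features were in the RefSeq gene table (assembly GRCr8), used for names and gene order.

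Differences are colony No.8 minus colony No.4. With 1 array per colony no test or error was computed, and the number of arrays limits the precision. Genes named from companion lists were those at least 2-fold apart that reached the floor, otherwise up to 4 with the largest differences. Direct family members were named too. Others were added after values were seen, among them relatives, receptors, other cell type markers and all chromosomal neighbours. The members and lists were chosen with earlier results of these data known. Counting was tested on simulated data. Python 3.11.15, pandas 2.3.3 and numpy 2.4.6 were used. Alternatives were median centring, quantile normalization, loess, adding 64 to linear values, other features, other floors and 1.5-fold.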

Additional observations from a re-analysis of the deposited data

How the results depend on the processing

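The count of 2 astrocyte identity genes at least 2-fold higher in colony No.8 was 1 after a loess on mean level, 1 with the floor at the 99th percentile of olfactory receptor genes, and 0 with an offset of 64 on the linear scale. Counted from the floor it was 1, and counted from 5.67 it was 0, 2 settings chosen after the data had been seen. The offset and the counting shrink differences of dim genes by construction. The count stayed at 2 under centring, quantile normalization, no floor, a floor of 5 and a limit of 1.5-fold, and the count in the other direction stayed at 0 throughout. With the mean in place of the median the difference over the 8 genes was 0.28, and over the 5 that reached the floor the median was 0.55; under the scalings and the offset the median stayed between -0.02 and 0.04. Each of the 8 genes has 1 feature, so the other choices of feature could change none of their values. No difference of the 8 genes turned its sign under centring, quantile normalization or loess. The offset took that of Gfap to 0.30, of Clu to 0.64 and of Apoe to 0.14. Of the 17 companion list counts above 0, 15 were 0 with the offset, and only those with Hes1 and Col1a1 stayed above 0. Over all alternatives, 160 of their 187 values were within 1.5 times the count given. The 187 include the mean of all features and the dimmest feature, which could change none of these counts. Among the listed genes only Mbp and Mthfd2 had more than 1 feature, and no feature of either was 2-fold apart. No paired analysis was possible because each colony has 1 array. Without detection calls, levels near 5.67 or below cannot be set apart from background.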

Other observations

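Of the 36685 features, 1320 (3.60%) held exactly the same deposited value in both colonies. These included the features of 635 named genes, of which 145 reached the floor. Over all 635, the median level was 3.46 and the highest was 10.45. None of the 8 astrocyte identity genes was among them. Among 1184 olfactory receptor genes, 74 had identical values. Neither labels nor headers say how such values arose.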
